A study of Danio rerio with 23 samples.

Results

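The interaction of glo1 loss and akr1a1a loss was followed across the transcriptome of zebrafish larvae in which neither, either or both of these genes had been knocked out. It is the difference between the effects of akr1a1a loss in 2 backgrounds, (DKO minus GLO1KO) minus (AKR1A1AKO minus WT), on the log2 scale. All 23 of the 23 libraries of the series entered 1 fit, with 6 libraries of WT, 5 of AKR1A1AKO, 6 of GLO1KO and 6 of DKO larvae. A positive interaction means that DKO lay above the level at which the effects of the 2 single knockouts simply add up, and a negative one that it lay below it. The AKR1A1AKO line had lost akr1a1a, the GLO1KO line had lost glo1 and the DKO line both, through CRISPR/Cas9, and DKO fish came from crossing the single lines and then intercrossing double heterozygotes, an intercross that also gave the WT fish. The lines carried the Tg(fli1:EGFP) reporter, which marks endothelial cells, and each library held RNA of 1 clutch of 20 whole larvae at 96 hpf (hours post fertilization). Each genotype was 1 line, so an effect of the knocked-out gene and an effect of other differences between the lines cannot be told apart.

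GLO1 starts the glutathione-dependent route that turns methylglyoxal, a reactive by-product of glycolysis, into lactate. AKR1A1 is an NADPH-dependent aldo-keto reductase that reduces aldehydes such as acrolein, and methylglyoxal is among its substrates as well. Reactive carbonyls of this kind modify arginine and other residues of proteins. When enzymes with overlapping substrates are lost together, a second loss may add to the first one, leave it as it was or take the transcriptome elsewhere, and the interaction sorts genes by these outcomes.

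Total counts ran from 34316527 to 36804437 per library, so depth was nearly even. The targeted gene glo1 (ENSDARG00000068978) was at 73.5 to 87.1 CPM (median 83.8) in WT, at 74.5, 79.9, 82.1, 83.3 and 86.9 CPM in AKR1A1AKO, at 2.85 to 3.45 CPM (median 3.33) in GLO1KO and at 2.73 to 4.16 CPM (median 3.68) in DKO libraries, where CPM are TMM-scaled read counts relative to library size. Its interaction was 0.13 (standard error 0.113, adjusted p = 0.392) in edgeR, which did not pass the test. This checks the labels for glo1, while reads of akr1a1a were not analysed here, so its loss in AKR1A1AKO and DKO libraries was not checked. A second gene named AKR1A1 (ENSDARG00000052030), of the same family, had an interaction of 0.05 (adjusted p = 0.716). Of 33 markers of larval cell types, 20 were matched by name and 18 had a median above 1 CPM in every genotype, among them prss1 of pancreas, fabp10a of liver, vil1 of intestine, ckma of muscle, elavl3 of neurons and the rod and cone transducins. WT replicates 1 and 2 stood above the other WT libraries in digestive organ genes, so the counts of those lists and the values of their leading genes are given with and without these libraries. The spread among WT libraries was not limited to digestive genes. In the liver, collagen, photoreceptor and synapse lists, WT replicates 1, 2 and 3 lay apart from WT replicates 4, 5 and 6. Whole larvae were measured, so fewer cells of a type and less RNA per cell of that type cannot be told apart in any result here.

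For a part of the transcriptome, the difference between AKR1A1AKO and WT was unlike that between DKO and GLO1KO. In edgeR's quasi-likelihood test with Benjamini-Hochberg adjustment, 2690 of 20136 genes tested had an interaction at an adjusted p below 0.05 and a fold above 1.5, which is 13.4% of genes, and such genes are termed called. The interaction was positive for 2055 of them (10.2%) and negative for 635 (3.15%), while the median log2 interaction of all genes was 0.003. With glo1 present, akr1a1a loss raised 461 genes (2.29%) and lowered 1980 (9.83%). Without glo1, it raised 537 (2.67%) and lowered 255 (1.27%). Losing glo1 raised 1380 genes (6.85%) and lowered 3575 (17.8%) when akr1a1a was present, and raised 784 (3.89%) and lowered 1599 (7.94%) when it was absent. DKO larvae had 1588 genes above (7.89%) and 3567 genes below (17.7%) their WT level, a comparison that shares its WT libraries with that of GLO1KO.

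Both estimates of the akr1a1a effect came from different libraries, since AKR1A1AKO against WT and DKO against GLO1KO share none, and so they may be set side by side. Of 2441 genes called with glo1 present and 792 called without it, 103 were called in the same direction, 4.22% of the first list and 13.0% of the second. As many as 306 were called in opposite directions, 12.5% of the first list and 38.6% of the second. Each of these 306 was also called in the interaction, which is the difference of the 2 arms, so that call is not separate evidence. Among them, 291 fell with glo1 present and rose without it, and 15 did the reverse. Across all genes, which are not independent replicates, the log2 fold changes of both arms had a Pearson correlation of -0.138 and a Spearman correlation of -0.072. The glo1 effect was more alike in its 2 backgrounds. Of 4955 and 2383 genes called, 1411 agreed in direction, 28.5% and 59% of the lists, and 134 went opposite ways, with a Pearson correlation across genes of 0.409 and a Spearman correlation of 0.494.

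**Figure D1:**
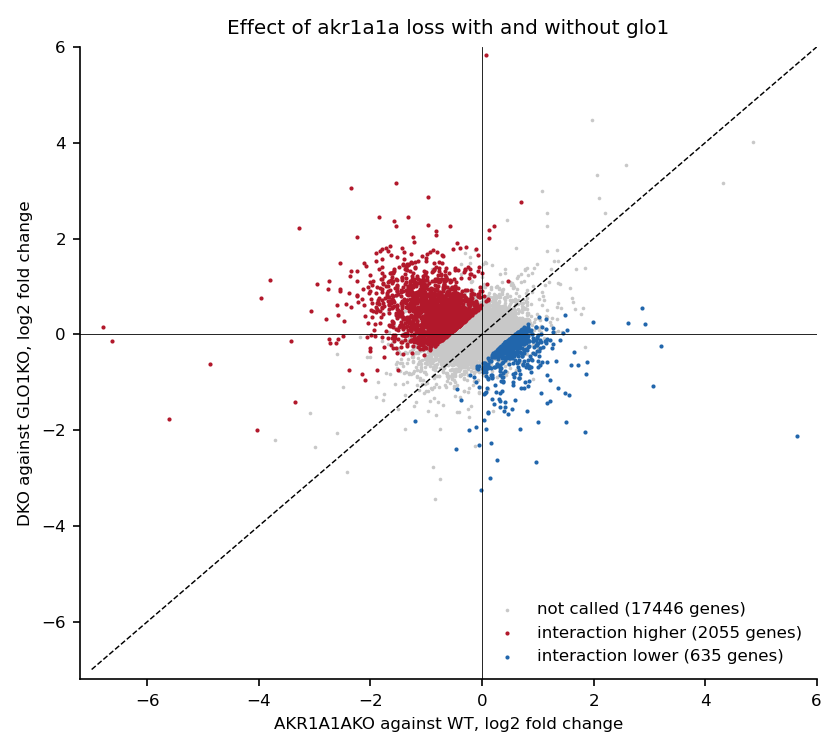
Each point is 1 gene, with the log2 fold change of AKR1A1AKO against WT on the horizontal axis and that of DKO against GLO1KO on the vertical axis. Genes on the dashed line responded equally in both backgrounds, the 2055 genes with a positive interaction lie above it, mostly at the upper left, the 635 with a negative interaction lie below it, and 6 genes lie outside the axes.

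For most genes the call did not rest on a single library. When untransformed CPM were fitted with limma, 2689 of the 2690 called genes kept the sign and 2461 of them (91.5%) passed an adjusted p of 0.05 with it. For a gene lowered in both single knockouts, a positive log2 interaction is also positive on the untransformed scale by arithmetic. The kept sign therefore cannot show that calls of such genes do not depend on the scale. In all 23 fits that left out 1 library, 1968 genes (73.2%) kept their call, 1578 with a positive and 390 with a negative interaction. In libraries other than WT replicates 1 and 2, 1448 genes had a positive and 450 a negative interaction, and 1839 of the 2690 genes kept their call. Without WT replicates 1, 2 and 3 the counts were 1221 and 403, and 1530 genes kept their call, while 2688 of the 2690 kept the sign of the estimate. List counts given below without these WT libraries come from the same fits, which called fewer genes in all.

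Called genes were sorted by their calls against WT and between knockouts. The largest class was less than additive, where DKO was called against WT in the direction of the single knockouts but the interaction went against it. It held 1232 genes (45.8%), of which 1078 were called in both single knockouts, 146 in GLO1KO alone and 8 in AKR1A1AKO alone. DKO was nearer to WT than GLO1KO was for 1015 of them, but was called against GLO1KO for just 169. The sign of the interaction that defines this class comes from the same libraries and favours a DKO nearer to WT. The 1015 and the class medians therefore describe the class and are no further evidence. In this class the 1007 genes with a positive interaction had a median log2 fold change of -0.99 in AKR1A1AKO, -1.49 in GLO1KO and -1.10 in DKO against WT, and the 225 with a negative one had 0.65, 0.93 and 0.81.

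In a second group the effect of a single loss was no longer called once the other gene was lost too. In 186 genes the glo1 effect was restored, that is, GLO1KO was called against WT, DKO was not, and DKO was called against GLO1KO in the opposite direction. Of these, 146 had fallen in GLO1KO, with a median of -1.20 against -0.30 in DKO, and 40 had risen, with 1.09 against -0.07. In 152 genes the akr1a1a effect was restored by the same rule, 116 that had fallen in AKR1A1AKO and 36 that had risen. Both effects were restored in 66 genes, with a median interaction of 2.24. The CPM ranges of DKO and WT libraries overlapped for 184 of the 186, 150 of the 152 and all 66 of these genes. In 97 of the 186 genes, every GLO1KO library lay outside the ranges of WT and DKO, and in 58 of the 152 every AKR1A1AKO library did. The rule that defines these classes selects for such levels, and the counts were not set against all genes. They describe the classes and are no further evidence of a restored effect.

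Few genes showed an outcome beyond that of the singles. DKO larvae alone differed from WT in 55 genes, 27 with a positive and 28 with a negative interaction. In 27 genes DKO was called against WT in the direction opposite to that of the single knockouts, and in 9 it went further in their direction than the sum of their effects. The remaining 963 genes were unresolved, as 459 of them had no call against WT, 497 had a single knockout called and DKO called neither against WT nor against that single knockout, and 7 had single knockouts called in opposite directions. Class counts moved when WT libraries were left out. When WT replicates 1 and 2 were dropped, the less than additive class held 600 genes and that of the restored glo1 effect 307, and without GLO1KO replicate 6 the latter held 118.

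**Figure D2:**
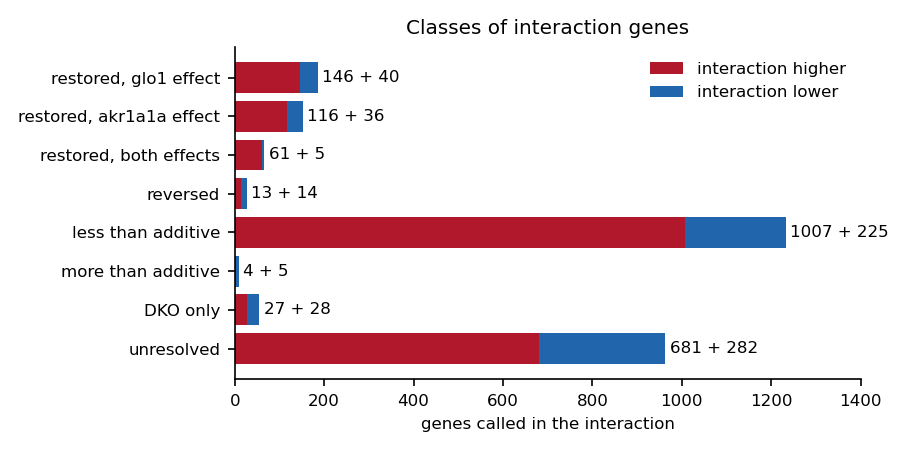
Bars give the number of called genes in each class, with positive interactions in red and negative ones in blue, and the 2 numbers beside each bar are these counts. The less than additive class is the longest bar at 1232 genes, and 9 genes were more than additive.

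Digestive enzymes of the exocrine pancreas had the largest median interaction of the gene lists. Of 25 tested genes of a list of zymogens and other acinar products, 22 were called higher in the interaction and 0 lower, with a median log2 interaction of 2.42, beside 10.2%, 3.15% and 0.003 for all genes. The list median was -1.33 in AKR1A1AKO, -1.76 in GLO1KO and -0.51 in DKO against WT, as log2 fold changes. In these comparisons 18, 22 and 8 members were called lower, beside 9.83%, 17.8% and 17.7% of all genes. CEL (ENSDARG00000029822), the bile salt-activated lipase that acinar cells secrete, was at 2.91 to 12.5 CPM (median 3.5) in WT and at 0.629, 0.918, 1.11, 1.43 and 1.9 CPM in AKR1A1AKO libraries. It was at 0.494 to 1.52 CPM (median 1.19) in GLO1KO and at 3.65 to 6.81 CPM (median 4.34) in DKO libraries. Every library of the single knockouts lay below every WT and DKO library, and the ranges of WT and DKO overlapped. The log2 interaction of this CEL gene was 4.28 (standard error 0.517, adjusted p = 7.09e-06). A second gene named CEL (ENSDARG00000017490) had an interaction of 3.07 but was less than additive. Its DKO level was called below WT in edgeR (log2 fold change -0.85, adjusted p = 0.0345). Its highest AKR1A1AKO library, at 4.86 CPM, was level with the lowest WT and DKO libraries. Reads of both copies may have been shared in the counting.

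Trypsinogen and elastase genes had positive interactions too, but with more overlap between genotypes. The marker prss1, a trypsinogen, was at 102 to 382 CPM (median 119) in WT and at 101 to 202 CPM (median 151) in DKO libraries. It was at 42.9, 52.3, 58.7, 97.1 and 117 CPM in AKR1A1AKO and at 23.6 to 101 CPM (median 61.6) in GLO1KO, with a log2 interaction of 2.64 (standard error 0.509, adjusted p = 5.16e-04). In ela3l, a pancreatic elastase, the values were 45.5 to 144 CPM (median 49.5) in WT, 15.7, 19, 20.4, 39.8 and 42.3 CPM in AKR1A1AKO, 11.6 to 52.7 CPM (median 32.6) in GLO1KO and 39 to 90.4 CPM (median 57.9) in DKO libraries. Its log2 interaction was 2.34 (standard error 0.503, adjusted p = 0.00126). DKO and WT overlapped for both genes. For prss1 the AKR1A1AKO range reached into those of WT and DKO. For ela3l the GLO1KO range reached into those of WT and DKO, and the AKR1A1AKO range into that of DKO. The trypsinogen copies prss59.1 and prss59.2 and the chymotrypsinogen ctrb.2 had interactions of 2.87, 2.42 and 2.92, but such near-identical copies may have shared reads in the counting. Further members were SYCN, syncollin of zymogen granules, at 2.72, and pdia2, a protein disulfide isomerase of the acinar cell, at 2.17.

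WT replicates 1 and 2 carried part of these values. The mean centred log2 CPM of the pancreas list, that is, each gene's log2 CPM less its mean over the libraries and averaged over the list, spanned 0.10 to 1.93 among WT libraries and -0.88 to 0.34 among AKR1A1AKO libraries. GLO1KO libraries spanned -1.65 to -0.08 and DKO libraries 0.11 to 0.65. With WT replicates 1 and 2 left out, 19 members were called higher, the list median fell to 1.56, and the interaction of CEL (ENSDARG00000029822) was 3.48 (adjusted p = 1.50e-06). Those of prss1, ela3l, ctrb.2, prss59.1 and prss59.2 were 1.92, 1.70, 2.05, 1.95 and 1.47. The call of the chymotrypsin-like gene ctrl was lost, with an interaction of 1.92 in all libraries and 1.06 (adjusted p = 0.0699) without them.

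Intestinal genes followed. Of 38 tested, 27 were called higher in the interaction (71.1%) and 0 lower (median 1.48), beside 10.2% and 3.15% of all genes. Without WT replicates 1 and 2, 25 were called. The medians against WT were -0.84 in AKR1A1AKO, -1.59 in GLO1KO and -0.56 in DKO. TM4SF5 (ENSDARG00000055185), a tetraspan membrane protein, was at 7.42 to 17.1 CPM (median 9.57) in WT and at 4.39, 5.34, 6.79, 7.14 and 8.97 CPM in AKR1A1AKO libraries. It was at 1.66 to 5.63 CPM (median 4.06) in GLO1KO and at 8.43 to 13.8 CPM (median 11.5) in DKO libraries, with a log2 interaction of 2.22 (standard error 0.336, adjusted p = 6.59e-05). GLO1KO lay below WT and DKO without overlap, and DKO overlapped with WT. SLC5A1, the sodium-coupled glucose transporter of the brush border, was at 16.5 to 54.8 CPM (median 21) in WT, at 6.84, 7.17, 8.42, 8.48 and 14.2 CPM in AKR1A1AKO, at 4.06 to 8.81 CPM (median 5.4) in GLO1KO and at 7.37 to 12.5 CPM (median 11.5) in DKO libraries. All 3 knockouts lay below WT in SLC5A1, so its positive interaction of 2.58 (standard error 0.398, adjusted p = 7.61e-05) marks a DKO that fell less than the sum of both effects. The apolipoproteins apoa4b.1 and apoa1b had interactions of 2.38 and 2.47, and the villin gene VIL1, a marker of the brush border, 1.71. Leaving out WT replicates 1 and 2 gave 1.88 for TM4SF5, 1.97 for SLC5A1 and 1.22 for VIL1.

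Plasma proteins and apolipoproteins of the liver held the largest number of calls among the lists. Of 77 tested, 60 were called higher (77.9%) and 2 lower (2.6%), beside 10.2% and 3.15% of all genes. The median log2 interaction was 1.85, and 48 of the 62 were less than additive. Against WT the list medians were -1.19 in AKR1A1AKO, -1.63 in GLO1KO and -0.95 in DKO, with the DKO median between WT and the single knockouts. The liver fatty acid binding protein fabp10a, a hepatocyte marker, was at 117 to 212 CPM (median 158) in WT, at 55.8, 63.4, 65.6, 123 and 126 CPM in AKR1A1AKO, at 29.7 to 79.7 CPM (median 65.2) in GLO1KO and at 96 to 214 CPM (median 148) in DKO libraries. Its interaction was 2.2 (standard error 0.357, adjusted p = 1.19e-04), and WT and DKO overlapped over most of their ranges. Transferrin, tfa, which carries iron in plasma, was at 494 to 1650 CPM (median 755) in WT, at 138, 179, 210, 404 and 405 CPM in AKR1A1AKO, at 93.1 to 203 CPM (median 142) in GLO1KO and at 195 to 440 CPM (median 234) in DKO libraries. For tfa, with an interaction of 2.68 (standard error 0.435, adjusted p = 1.20e-04), every DKO library lay below every WT library.

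Complement and acute phase genes were among the largest. The factor H-like gene cfhl2 (ENSDARG00000103760) was at 5.07 to 12.4 CPM (median 8.68) in WT, at 1.71, 2.24, 2.5, 4.06 and 4.4 CPM in AKR1A1AKO, at 0.174 to 0.774 CPM (median 0.671) in GLO1KO and at 1.73 to 4.57 CPM (median 2.6) in DKO libraries. GLO1KO was below each other genotype without overlap, DKO was level with AKR1A1AKO, and the interaction was 3.80 (standard error 0.451, adjusted p = 5.96e-06). The pentraxin apcs had an interaction of 3.71, the intelectin itln3 3.45, the antiplasmin gene serpinf2b 2.87, apoa2 2.45, the protease inhibitor serpina1 2.28, the complement gene c3b.1 2.28 and the fibrinogen gene FGB 1.82. Leaving out WT replicates 1 and 2, 54 members of the list were called higher and 1 lower, and without WT replicates 1, 2 and 3, 49 and 1, with medians of 1.46 and 1.3. Leaving out the first 2 of these gave 2.02 for fabp10a, 2.18 for tfa, 3.48 for cfhl2 and 3.36 for apcs.

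**Figure D3:**
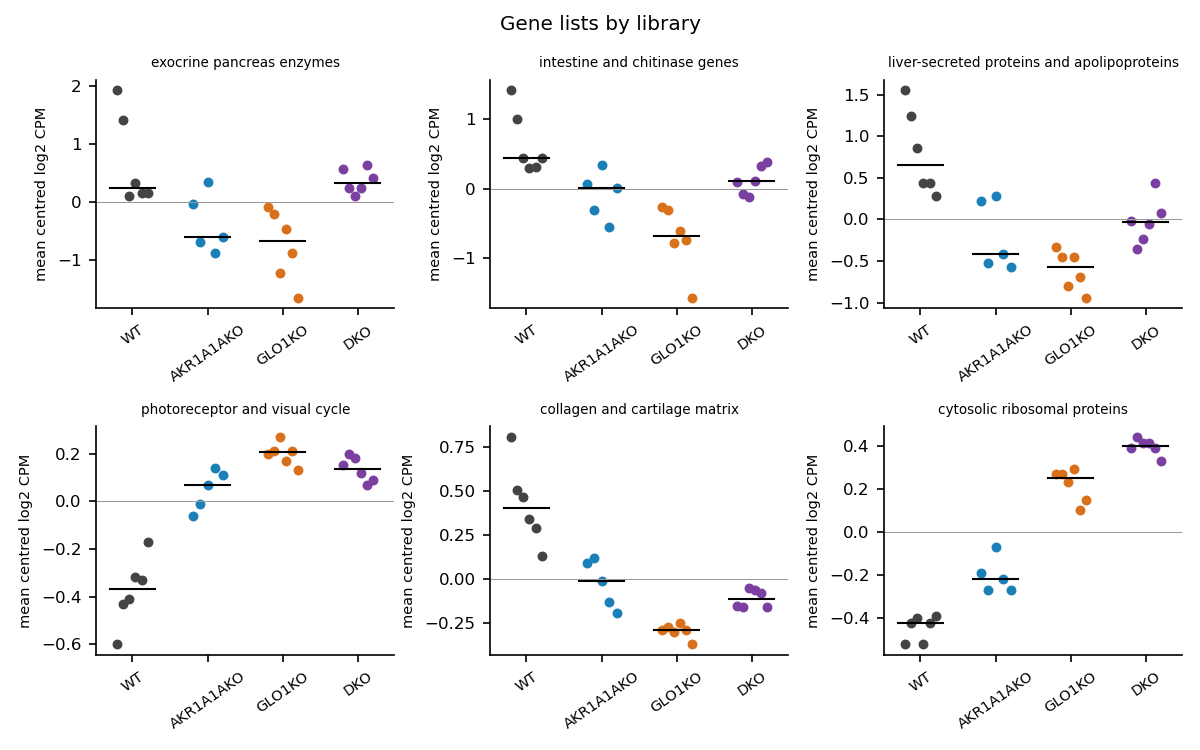
Each point is 1 library, the vertical axis is the mean centred log2 CPM of a list, and black bars are medians of the genotype. The medians of the pancreas, intestine and liver lists were lower in both single knockouts than in WT and DKO, with 2 WT libraries far above the other 4 in the pancreas panel, the photoreceptor list lay above WT in all 3 knockouts, and the ribosomal protein list did not overlap between genotypes.

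Enzymes that clear carbonyls, peroxides and drugs had mostly positive interactions. Of 45 carbonyl and aldehyde detoxification genes, 17 were called higher and 0 lower (median 0.46). Of 66 genes of glutathione, thioredoxin and Nrf2 targets, 24 were higher and 1 lower (median 0.46), and of 81 genes of the cytochrome P450 and xenobiotic list 45 were higher and 1 lower (median 0.89). These counts without WT replicates 1 and 2 were 13 and 0, 17 and 0, and 33 and 2. Without WT replicate 3 as well, they were 13 and 0, 12 and 0, and 33 and 2. In all libraries, calls higher made up 37.8%, 36.4% and 55.6% of these lists, beside 10.2% of all genes. The mitochondrial aldehyde dehydrogenase gene aldh2.2 was at 48.4 to 77.9 CPM (median 56.1) in WT and at 26.4, 29.6, 30.9, 36.6 and 38.3 CPM in AKR1A1AKO libraries. It was at 33.7 to 45.6 CPM (median 42.2) in GLO1KO and at 52.1 to 60.3 CPM (median 55.9) in DKO libraries, so that both single knockouts lay below WT and DKO without overlap, and DKO overlapped with WT. Its interaction was 1.32 (standard error 0.149, adjusted p = 3.76e-06).

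The omega class glutathione transferase gene gsto2 was at 20.7 to 43.7 CPM (median 24.7) in WT, at 9.87, 12.9, 13.2, 15.8 and 17.9 CPM in AKR1A1AKO, at 11.1 to 21.7 CPM (median 14.7) in GLO1KO and at 23.3 to 31.3 CPM (median 28.5) in DKO libraries, with an interaction of 1.93 (standard error 0.264, adjusted p = 3.12e-05). Every DKO library exceeded every library of either single knockout. The theta class transferase gene gstt1a had an interaction of 1.60, and the gamma-glutamyl transferase ggt1b, which breaks down extracellular glutathione, 2.95. Catalase, CAT, was at 66.7 to 119 CPM (median 80.2) in WT, at 44.5, 47.6, 52.6, 52.9 and 55.2 CPM in AKR1A1AKO, at 39.8 to 47.9 CPM (median 44.9) in GLO1KO and at 50.7 to 64.9 CPM (median 54) in DKO libraries. All 3 knockouts lay below WT in catalase, with an interaction of 1.08 (standard error 0.158, adjusted p = 5.30e-05). In the carbonyl list, the kynurenine pathway dehydrogenase ALDH8A1 had 1.96 and the short-chain reductase dhrs11b.2 1.53. In the xenobiotic list, cyp2ad2 had 2.34, the sulfotransferases sult1st2 and sult1st6 3.59 and 2.04, and the transporter abcb5 1.05.

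Glucose metabolism genes were called higher more often than all genes. Of 69 genes of glycolysis, gluconeogenesis and glycogen, 14 were called higher (20.3%, beside 10.2% of all genes), with a median of 0.14. Calls lower numbered 3 (4.35%), near the 3.15% of all genes. Without WT replicates 1 and 2, 13 were higher and 2 lower. Liver-type genes had positive interactions. PCK1, the gluconeogenic carboxykinase on the glucocorticoid list, was at 130 to 414 CPM (median 170) in WT, at 66.4, 66.7, 70.1, 143 and 166 CPM in AKR1A1AKO, at 25.7 to 89.7 CPM (median 58.4) in GLO1KO and at 50.9 to 179 CPM (median 145) in DKO libraries, with an interaction of 2.31 (standard error 0.5, adjusted p = 0.00132). The liver glycogen synthase GYS2 and the glucose transporter SLC2A2 had 2.37 and 1.64. Leaving out WT replicates 1 and 2 gave 1.73 for PCK1, 1.94 for GYS2 and 1.33 for SLC2A2.

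PYGM, the muscle glycogen phosphorylase, went the other way. It was at 141 to 188 CPM (median 164) in WT, at 121, 126, 173, 174 and 185 CPM in AKR1A1AKO, at 60.4 to 89.7 CPM (median 85) in GLO1KO and at 38.3 to 56.3 CPM (median 52.9) in DKO libraries. Every DKO library lay below every GLO1KO library, while AKR1A1AKO overlapped with WT. Its interaction of -0.61 (standard error 0.165, adjusted p = 0.00695) was more than additive, but lay close to the 1.5-fold threshold and kept its call in 14 of 23 fits that left out 1 library, and it lost it (-0.57) without WT replicates 1 and 2. GPI (ENSDARG00000103826), a glucose-6-phosphate isomerase copy, was at 28.8 to 56.2 CPM (median 43.7) in WT, at 63.8, 81.5, 94, 101 and 105 CPM in AKR1A1AKO, at 38.1 to 48.4 CPM (median 45.6) in GLO1KO and at 10.2 to 50.8 CPM (median 27.9) in DKO libraries. It was raised in AKR1A1AKO alone and had an interaction of -1.68 (standard error 0.383, adjusted p = 0.002), and DKO libraries differed widely among themselves.

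Fatty acid oxidation genes included 12 called higher (25.0%) and 0 lower of 48 (median 0.42), beside 10.2% and 3.15% of all genes. Without WT replicates 1 and 2, 8 were called higher and 0 lower (median 0.33). The peroxisomal bifunctional enzyme EHHADH had an interaction of 1.39 and the thiolase ACAA1 0.94, or 1.11 and 0.73 without those libraries. Cholesterol and fatty acid synthesis held 4 called higher (9.52%) and 2 lower (4.76%) of 42, near the shares of all genes, and 2 and 2 without WT replicates 1 and 2, and the intestinal cholesterol transporter NPC1L1 led it with 2.79.

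A list of genes of insulin signalling, glucose handling, arginine metabolism, matrix and aldehyde clearance was based on RT-qPCR targets of the study, with pdx1, ARG2 and further copies of the targets added, so its direction is not independent evidence. Of its 38 tested members, 11 were called higher in the interaction (28.9%) and 0 lower, beside 10.2% and 3.15% of all genes, with a median of 0.30. AKR1B1, the aldose reductase, was at 35.3 to 51.7 CPM (median 40.1) in WT, at 16.5, 25.3, 27.6, 29 and 29.3 CPM in AKR1A1AKO, at 21.4 to 30 CPM (median 25.3) in GLO1KO and at 33 to 38.2 CPM (median 34.1) in DKO libraries, with an interaction of 1.18 (standard error 0.168, adjusted p = 4.11e-05). DKO exceeded both single knockouts in every library. The pancreatic transcription factor gene pdx1 was at 2.93 to 5.21 CPM (median 4.34) in WT, at 2.58, 2.73, 2.98, 3.2 and 3.54 CPM in AKR1A1AKO, at 2.19 to 3.72 CPM (median 2.69) in GLO1KO and at 3.89 to 4.65 CPM (median 4.15) in DKO libraries, with an interaction of 1.07 (standard error 0.199, adjusted p = 3.67e-04). UGP2, which makes UDP-glucose for glycogen, was at 38.4 to 68.1 CPM (median 45.9) in WT, at 16.5, 17.2, 22.1, 25.4 and 29.6 CPM in AKR1A1AKO, at 11.3 to 15 CPM (median 13.4) in GLO1KO and at 8.73 to 17.9 CPM (median 12.3) in DKO libraries. In UGP2 no knockout overlapped with WT, DKO overlapped with GLO1KO, and the interaction was 1.09 (standard error 0.226, adjusted p = 9.66e-04).

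Arginine genes on that list had smaller interactions. The arginase genes ARG1 and ARG2 had 0.91 (standard error 0.332, adjusted p = 0.0379) and 0.69 (standard error 0.172, adjusted p = 0.004), and the argininosuccinate synthase ASS1 0.72 (standard error 0.194, adjusted p = 0.00647). ARG1 had a median below 1.5 CPM in every genotype and kept its call in 11 of 23 fits that left out 1 library. The dehydrogenases ALDH9A1 (ENSDARG00000055331), aldh3a2a and aldh3a2b had 1.06, 0.64 and 1.13, and the laminin LAMB1 0.62. Insulin receptor genes were not called, with INSR (ENSDARG00000011948) at -0.05 (adjusted p = 0.697) and INSR (ENSDARG00000071524) at 0.22 (adjusted p = 0.154). ARG2 and both INSR genes fall outside the naming rule and are given as members of that list. Of the 38, 7 were called when WT replicates 1 and 2 were dropped, and aldh3a2b was then at 0.59 (adjusted p = 0.0508), aldh3a2a at 0.58, LAMB1 at 0.38 and ARG1 at 0.88 (adjusted p = 0.0699), all without a call.

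CPS1 (ENSDARG00000020028), a carbamoyl phosphate synthetase of the urea cycle that stands on the liver list, was more than additive. It was at 3.11 to 5.11 CPM (median 3.5) in WT, at 2.22, 2.96, 3.92, 4.45 and 4.83 CPM in AKR1A1AKO, at 1.34 to 2.88 CPM (median 1.77) in GLO1KO and at 0.644 to 1.27 CPM (median 0.819) in DKO libraries. AKR1A1AKO overlapped with WT, GLO1KO was lower, and DKO was lower than every other library. The interaction was -1.05 (standard error 0.304, adjusted p = 0.0102), and the log2 fold change of akr1a1a loss was -1.10 without glo1 and -0.05 with it.

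Blood, muscle and matrix genes had positive interactions, and 9, 14 and 19 of the called genes of these lists were less than additive. Of 34 erythroid and heme genes, 11 were called higher and 0 lower (median 0.40), of 105 muscle sarcomere genes 22 and 1 (median 0.26), and of 80 collagen and cartilage matrix genes 35 and 0 (median 0.53). Calls higher made up 32.4%, 21.0% and 43.8% of these lists, beside 10.2% of all genes. Without WT replicates 1 and 2 the counts were 9 and 0, 17 and 0, and 28 and 0. Without WT replicate 3 as well, those of the matrix list were 21 and 0. Its mean centred log2 CPM ran from 0.81 in WT replicate 1 to 0.13 in WT replicate 6. The transferrin receptor gene tfr1b was at 85.9 to 130 CPM (median 92) in WT and at 29.6, 32.1, 32.7, 35.4 and 43.6 CPM in AKR1A1AKO libraries. It was at 26.4 to 34.9 CPM (median 32.1) in GLO1KO and at 25.7 to 34.5 CPM (median 30.2) in DKO libraries. All 3 knockouts lay below WT and overlapped with each other, which gave an interaction of 1.42 (standard error 0.148, adjusted p = 1.09e-06). Its copy tfr1a had 1.66, the heme synthesis enzyme CPOX 0.88 and the embryonic globin hbae3 0.71. UROC1, an enzyme of histidine breakdown that the list holds although it makes no heme, had 3.01.

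In cartilage and matrix, col8a1a, a short-chain collagen, was at 24.5 to 45.9 CPM (median 39.1) in WT, at 8.01, 9.14, 11.2, 15.8 and 16.3 CPM in AKR1A1AKO, at 4.79 to 6.01 CPM (median 5.32) in GLO1KO and at 6.92 to 10.9 CPM (median 7.81) in DKO libraries. No genotype overlapped with another except AKR1A1AKO with DKO, DKO lay above GLO1KO, and the interaction was 2.27 (standard error 0.235, adjusted p = 9.82e-07). HAPLN1, a link protein that ties hyaluronan to cartilage proteoglycan, was at 6.59 to 10.3 CPM (median 8.45) in WT, at 4.23, 4.64, 4.75, 4.86 and 4.98 CPM in AKR1A1AKO, at 2.84 to 3.65 CPM (median 3.19) in GLO1KO and at 6.1 to 8.1 CPM (median 6.72) in DKO libraries. Both single knockouts lay below WT and DKO without overlap, with an interaction of 1.97 (standard error 0.146, adjusted p = 4.22e-09), and leaving out WT replicates 1 and 2 gave 1.98 (adjusted p = 3.82e-08). COL11A1, a fibrillar collagen of cartilage, and epyc, the proteoglycan epiphycan, both had 0.69. Among muscle genes, the fast troponin I gene TNNI2 had 3.07, the parvalbumin pvalb3 1.07, the myosin chaperone UNC45B 0.99 and hsp90aa1.1, which works with it, 1.05.

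Photoreceptor genes had the opposite sign. Of 84 tested genes of the photoreceptor and visual cycle list, 33 were called lower (39.3%) and 0 higher, beside 3.15% and 10.2% of all genes. The median log2 interaction was -0.51. The medians against WT were 0.49 in AKR1A1AKO, 0.59 in GLO1KO and 0.49 in DKO. In these comparisons 22, 42 and 35 members were called higher, beside 2.29%, 6.85% and 7.89% of all genes. The rod arrestin gene saga, which ends the light response, was at 62 to 99.5 CPM (median 80.5) in WT and at 158, 163, 177, 178 and 196 CPM in AKR1A1AKO libraries. It was at 173 to 207 CPM (median 194) in GLO1KO and at 157 to 195 CPM (median 167) in DKO libraries, and the knockouts overlapped with each other but not with WT. Its interaction was -1.32 (standard error 0.127, adjusted p = 5.23e-07). The rod transducin GNAT1 had -0.88, the synaptic calcium sensor cabp4 -1.18 and the disc rim protein ROM1 -0.71. The cone transducin GNAT2 did not pass the fold threshold. Without WT replicates 1 and 2, 18 were called lower and 0 higher (median -0.45). Without WT replicate 3 as well, 16 were called lower and 0 higher (median -0.41). In fits that left out 1 library the count called lower ran from 23 to 38.

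Of 46 lens crystallin genes, 4 were lower (8.7%) and 1 higher (2.17%), beside 3.15% and 10.2% of all genes, and their median of -0.37 came with log2 fold changes of 0.12, 0.11 and -0.13 in AKR1A1AKO, GLO1KO and DKO, of which the second turned to -0.01 with scaling by library size alone. The crystallins crygm2d5 and crygm2d20, which belong to a family of near-identical copies, had -0.74 and -0.67. Of 139 synapse and channel genes, 3 were lower and 3 higher (2.16% each), and 3 and 1 without WT replicates 1 and 2. Among those, the amyloid precursor relative APLP2 had -0.85 and the complexin CPLX4, a protein of retinal synapses, -0.80. Of 28 islet genes, 6 were lower (21.4%) and 4 higher (14.3%), 3 each without WT replicates 1 and 2, and 0 and 1 without WT replicate 3 as well, among them the regulators PAX6 (-0.82) and ISL1 (-0.62, or -0.55 and not called without WT replicates 1 and 2), which neurons and retina also use, and the sulfonylurea receptor ABCC8 (-0.75). Glia and myelin genes gave 4 lower (9.09%) and 3 higher (6.82%) of 44, and 3 and 1 without those libraries, with the Notch target her4.1 at -0.80 and the astroglial water channel AQP4 at 0.89.

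MMP9, cxcl8b.1 and il1b, genes of acute inflammation, rose in GLO1KO larvae and were not called in DKO larvae against WT. MMP9 (ENSDARG00000042816), a gelatinase of leukocytes and wounded epithelium, was at 2.59 to 5.49 CPM (median 3.32) in WT, at 2.82, 4.17, 4.53, 4.72 and 6.09 CPM in AKR1A1AKO, at 11.9 to 31.7 CPM (median 16.4) in GLO1KO and at 2.72 to 3.61 CPM (median 3.36) in DKO libraries. Every GLO1KO library stood above every other library, and the other genotypes overlapped. Its interaction was -2.90 (standard error 0.336, adjusted p = 5.15e-06). The neutrophil chemokine cxcl8b.1 was at 0.854 to 1.62 CPM (median 1.29) in WT, at 0.821, 0.841, 0.993, 1.5 and 2.04 CPM in AKR1A1AKO, at 3.25 to 22.8 CPM (median 6.71) in GLO1KO and at 0.544 to 1.37 CPM (median 1.19) in DKO libraries. Again GLO1KO alone was high, with 2 of its libraries far above the others, and the interaction was -3.25 (standard error 0.603, adjusted p = 3.66e-04).

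The cytokine il1b, chosen after its values were seen, was at 0.366 to 0.721 CPM (median 0.473) in WT, at 0.201, 0.274, 0.705, 0.89 and 0.938 CPM in AKR1A1AKO, at 0.622 to 2.06 CPM (median 1.24) in GLO1KO and at 0.248 to 0.92 CPM (median 0.61) in DKO libraries, with an interaction of -1.45 (standard error 0.528, adjusted p = 0.0375). All 4 genotypes overlapped in il1b, its call was kept in 12 of 23 fits that left out 1 library, and without WT replicates 1 and 2 its interaction was -1.32 (adjusted p = 0.0965). PTGS2 (ENSDARG00000010276), the inducible cyclooxygenase, was at 5.47 to 11.5 CPM (median 9.09) in WT, at 5.47, 8.97, 10.1, 14.4 and 15.7 CPM in AKR1A1AKO, at 7.27 to 26.8 CPM (median 12.5) in GLO1KO and at 4.38 to 7.6 CPM (median 5.09) in DKO libraries. It was reversed, called higher in GLO1KO and lower in DKO against WT, although all 4 genotypes overlapped, with an interaction of -1.85 (standard error 0.405, adjusted p = 0.00146). Over the whole inflammation and neutrophil list, 9 genes were called lower (13.0%) and 4 higher (5.8%) of 69, beside 3.15% and 10.2% of all genes, and the median was -0.05. One of the 4, MFAP4 (ENSDARG00000090557), shares its name with 4 other tested genes and stayed below 2 CPM in the median of every genotype, with an interaction of 1.49. Without WT replicates 1 and 2, 6 genes of the list were called lower and 5 higher of 68 tested. Over all genes, that fit called 450 lower and 1448 higher. GLO1KO against WT raised 12 of the 69 members and lowered 8, beside 6.85% and 17.8% of all genes.

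Immediate early genes, which cells switch on within minutes of a stimulus, had a few negative interactions. Of 43 tested, 4 were called lower (9.3%) and 0 higher in the interaction, beside 3.15% and 10.2% of all genes. Loss of akr1a1a raised 5 of the 43 and lowered 1 with glo1 present, beside 2.29% and 9.83% of all genes. The median interaction was -0.26, with medians of 0.34 in AKR1A1AKO, 0.05 in GLO1KO and 0.01 in DKO against WT. The last 2 of these turned to -0.08 and -0.18 with scaling by library size alone. FOSL1, an AP-1 subunit, was at 4.1 to 9.29 CPM (median 5.19) in WT, at 2.54, 9.3, 12.3, 19.3 and 23.7 CPM in AKR1A1AKO, at 4.79 to 15.4 CPM (median 6.88) in GLO1KO and at 2.55 to 4.2 CPM (median 2.94) in DKO libraries. AKR1A1AKO libraries ranged most widely, from below every DKO library to above every other library, and the interaction was -2.60 (standard error 0.525, adjusted p = 7.41e-04). FOSL2, DUSP2 and ATF3 had -0.81, -0.69 and -0.69. The interferon list had 2 lower (9.09%) and 1 higher (4.55%) of 22, beside 3.15% and 10.2% of all genes. The one called higher, mxc, a myxovirus resistance gene, was at 0.856 to 1.44 CPM (median 1.26) in WT, at 0.115, 0.271, 0.274, 0.386 and 0.584 CPM in AKR1A1AKO, at 1.4 to 2.87 CPM (median 2.13) in GLO1KO and at 1.04 to 1.66 CPM (median 1.17) in DKO libraries. It fell in AKR1A1AKO, rose in GLO1KO and was level with WT in DKO larvae, with an interaction of 1.14 (standard error 0.336, adjusted p = 0.0121).

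A further set was altered most in AKR1A1AKO larvae, although DKO larvae lacked akr1a1a as well. SMC1A (ENSDARG00000055754), a copy of a cohesin subunit gene, was at 8.78 to 13.5 CPM (median 11.6) in WT, at 0, 0, 0, 0.0271 and 0.465 CPM in AKR1A1AKO, at 5.73 to 10.5 CPM (median 7.55) in GLO1KO and at 5.98 to 10.6 CPM (median 9.3) in DKO libraries. In counts, the 5 AKR1A1AKO libraries held 0, 0, 0, 1 and 17 reads, and the fitted interaction of 6.96 (standard error 0.481, adjusted p = 1.37e-09) depends on how so few reads are treated, rising to 10.26 without AKR1A1AKO replicate 5. A second gene named SMC1A (ENSDARG00000058203) was at 127 to 141 CPM (median 136) in WT libraries and had an interaction of -0.00, and reads of both copies may have been shared in the counting. The locus loc101882496 (ENSDARG00000098256) was at 9.77 to 18.3 CPM (median 11.9) in WT, at 0.201, 0.222, 0.438, 1.14 and 2.07 CPM in AKR1A1AKO, at 5.96 to 17.1 CPM (median 12.2) in GLO1KO and at 13 to 28.8 CPM (median 22) in DKO libraries, with an interaction of 4.72 (standard error 0.487, adjusted p = 9.82e-07).

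CCNF and tmprss13a were changed most in AKR1A1AKO larvae as well. CCNF, a cyclin F copy, was at 11.3 to 14.5 CPM (median 13.6) in WT, at 23.7, 26.5, 27.8, 28.3 and 28.9 CPM in AKR1A1AKO, at 16.2 to 22.7 CPM (median 19.7) in GLO1KO and at 11.7 to 17.8 CPM (median 14) in DKO libraries. AKR1A1AKO stood above all other genotypes, GLO1KO was above WT as well, DKO overlapped with WT, and the interaction was -1.48 (standard error 0.128, adjusted p = 7.32e-08). The membrane-bound serine protease tmprss13a was at 2.99 to 6.19 CPM (median 4.7) in WT, at 1.31, 1.33, 1.61, 1.72 and 2.26 CPM in AKR1A1AKO, at 2.47 to 5.45 CPM (median 3.18) in GLO1KO and at 3.89 to 6.37 CPM (median 5.13) in DKO libraries, with an interaction of 2.12 (standard error 0.276, adjusted p = 1.91e-05). REEP6, an endoplasmic reticulum shaping protein, had -1.53, and the stress-induced mTOR inhibitor DDIT4 -0.77. The wider cell cycle and DNA replication list had 1 gene called higher (0.935%) and 0 lower of 107, beside 10.2% and 3.15% of all genes. That 1 gene was SMC1A.

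PIGP, a subunit of the enzyme that starts GPI anchor synthesis, was reversed. It was at 13.3 to 15.9 CPM (median 15) in WT, at 5.35, 5.59, 6.05, 6.15 and 6.56 CPM in AKR1A1AKO, at 9.61 to 15.7 CPM (median 11.8) in GLO1KO and at 16.9 to 30.8 CPM (median 25.2) in DKO libraries. AKR1A1AKO lay below and DKO above every WT library, so that akr1a1a loss had a log2 fold change of -1.33 with glo1 and 0.99 without it, and the interaction was 2.32 (standard error 0.196, adjusted p = 5.72e-08). An unnamed gene, ENSDARG00000114941, went the other way, at 7.05 to 9.77 CPM (median 7.52) in WT, at 14.2, 14.8, 15.1, 15.3 and 18.5 CPM in AKR1A1AKO, at 7.52 to 12.5 CPM (median 9.34) in GLO1KO and at 1.4 to 5.44 CPM (median 2.38) in DKO libraries. Its AKR1A1AKO libraries exceeded all others and its DKO libraries fell below all others, with an interaction of -2.83 (standard error 0.276, adjusted p = 5.47e-07). The motor adaptor gene spag9a was reversed as well (-1.08), and so were the autophagy-related CALCOCO1 (1.64) and plekhs1.3 (1.63).

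Changes seen in DKO larvae alone included both directions. TRPM2, a calcium channel opened by oxidative stress, was at 7.39 to 10.2 CPM (median 8.37) in WT, at 5.61, 7.9, 8.41, 10.3 and 13.6 CPM in AKR1A1AKO, at 5.41 to 6.74 CPM (median 5.96) in GLO1KO and at 1.36 to 3.05 CPM (median 1.72) in DKO libraries. Every DKO library was below every other library, GLO1KO lay below WT without passing the fold threshold, and the interaction was -1.73 (standard error 0.246, adjusted p = 4.19e-05). D-aspartate oxidase, ddo, was at 3.5 to 5.88 CPM (median 3.91) in WT, at 4.25, 5.03, 5.32, 5.57 and 5.91 CPM in AKR1A1AKO, at 3.16 to 4.35 CPM (median 4.08) in GLO1KO and at 0.821 to 2.05 CPM (median 1.48) in DKO libraries, with an interaction of -1.73 (standard error 0.239, adjusted p = 3.46e-05) and DKO again below all others. The ferritin-like gene fthl30 was at 2.75 to 4.16 CPM (median 3.95) in WT, at 2.08, 2.62, 3.17, 3.81 and 3.93 CPM in AKR1A1AKO, at 2.04 to 4.25 CPM (median 3.07) in GLO1KO and at 5.62 to 13.2 CPM (median 7.46) in DKO libraries. Each DKO library was above each library of the other genotypes, with an interaction of 1.65 (standard error 0.293, adjusted p = 2.50e-04), and fthl28, of the same family, had 1.29.

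The cytochrome oxidase subunit gene cox6b1 was at 42 to 57.7 CPM (median 44.1) in WT, at 38.4, 42.8, 44, 49.1 and 51.3 CPM in AKR1A1AKO, at 32.4 to 42.5 CPM (median 36.1) in GLO1KO and at 55 to 84.3 CPM (median 72.2) in DKO libraries, with an interaction of 1.01 (standard error 0.143, adjusted p = 4.11e-05). DKO exceeded both single knockouts in every library and overlapped with WT through WT replicate 1. Of 80 oxidative phosphorylation subunits, 3 were called higher (3.75%, below the 10.2% of all genes) and 0 lower. The others were COX7A2 (0.70) and cox8b (0.86), both of the unresolved class. The Fanconi anemia gene fanca was called higher in DKO alone (1.21) and the transporter gene abcc6b.1 lower (-1.55). In abcc6b.1, AKR1A1AKO replicate 5, at 1.09 CPM, lay within the DKO range of 0.634 to 2.51 CPM. Beside CPS1 and PYGM, the otoancorin gene otoa, of the inner ear, was more than additive, with 0.68.

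**Figure D4:**
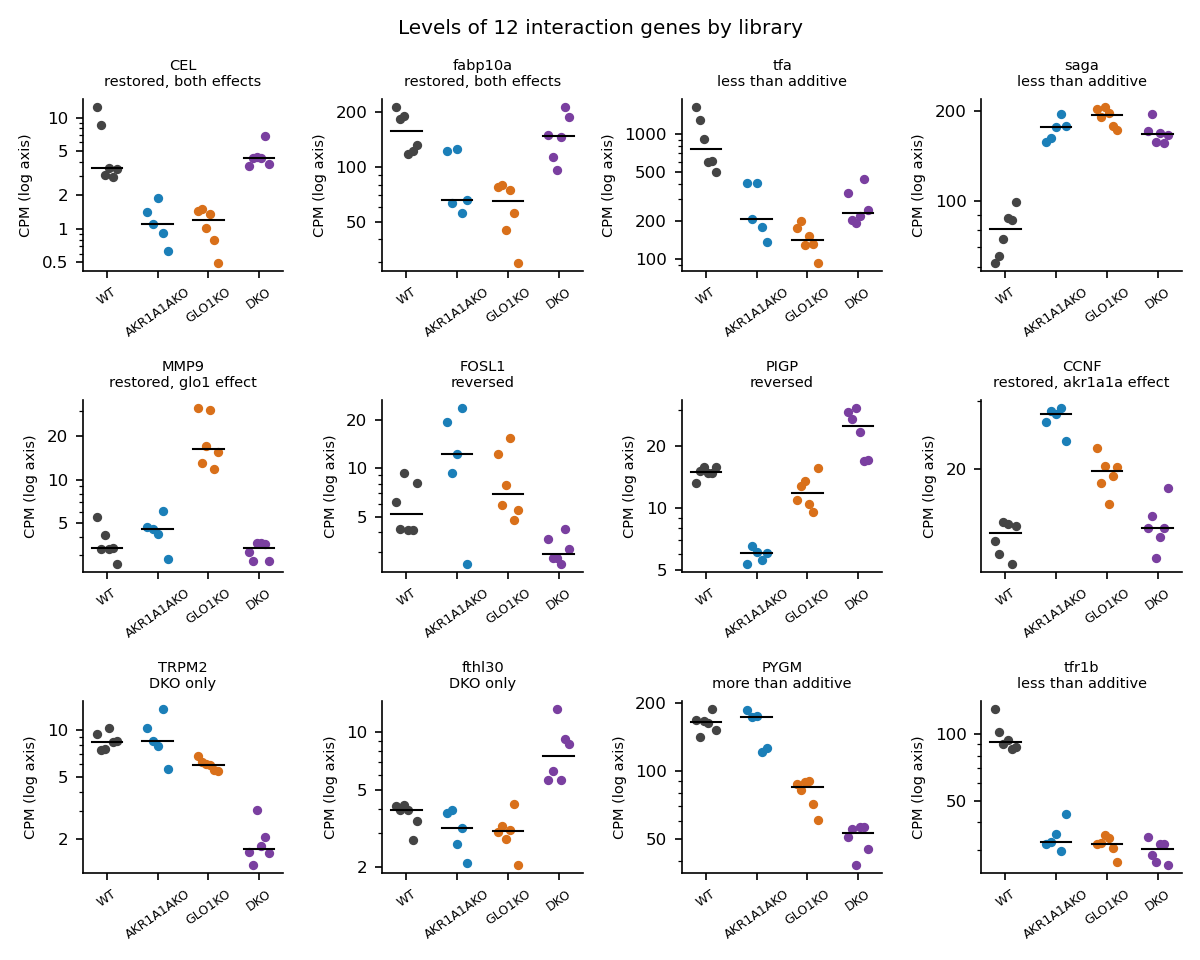
Each panel is 1 gene with its class, each point is 1 library, the vertical axis is CPM on a log axis, and black bars are medians of the genotype. Single knockouts fall and DKO returns in CEL (ENSDARG00000029822) and fabp10a, GLO1KO alone is high in MMP9, DKO alone is low in TRPM2 and high in fthl30, and the 3 knockouts overlap with each other but not with WT in tfr1b and saga.

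Ribosomal protein genes rose with glo1 loss whether akr1a1a was present or not. Of 71 cytosolic ribosomal protein genes, 0 were called in the interaction by edgeR, DESeq2 or limma-trend, while 13 had an adjusted p below 0.05 in edgeR without the fold threshold and 19 an unadjusted p below 0.05, with a median interaction of -0.08. Losing glo1 raised 48 of them with akr1a1a and 38 without it, and DKO against WT raised 63. The shares of all genes raised in these comparisons were 6.85%, 3.89% and 7.89%. Their median log2 fold change was 0.26 for akr1a1a loss with glo1 and 0.17 without it. It was 0.68 for glo1 loss with akr1a1a and 0.60 without it, and 0.85 in DKO against WT. The mean centred log2 CPM of this list did not overlap between the genotypes, at -0.52 to -0.39 in WT, -0.27 to -0.07 in AKR1A1AKO, 0.10 to 0.29 in GLO1KO and 0.33 to 0.44 in DKO libraries. Of 84 splicing factors 0 were called by these tools, with 16 at an adjusted p below 0.05 and 26 at an unadjusted one in edgeR, a median interaction of -0.05, and medians of 0.14, 0.31 and 0.40 in AKR1A1AKO, GLO1KO and DKO against WT. Of 69 mitochondrial ribosomal proteins 0 were called by these tools, with 11 at an adjusted and 25 at an unadjusted p below 0.05, and of 29 p53 targets 0 were called, with 5 and 9. Over all 20136 genes, 2690 (13.4%) were called in the interaction in edgeR. An adjusted p below 0.05 was found for 6410 of all genes and an unadjusted one for 8600.

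Ribosome biogenesis factors and RNA polymerase subunits had a share of calls near that of all genes, but most had an adjusted p below 0.05 without the fold threshold. Of 71 tested, 8 were called higher (11.3%, beside 10.2% of all genes) and 0 lower, and 3 were called without WT replicates 1 and 2. In edgeR, 51 of the 71 had an adjusted p below 0.05, beside 6410 of all 20136 genes. The median interaction was 0.36, beside 0.003 for all genes. The medians were -0.12 in AKR1A1AKO, -0.07 in GLO1KO and 0.19 in DKO against WT, the last of which was -0.00 with scaling by library size alone, and the mean centred log2 CPM of the list was 0.10 to 0.21 in DKO libraries, against -0.12 to 0.02 in WT. The nucleolar chaperone npm1a had 0.71, the ribosome assembly factors RRP12 and UTP20 0.59 and 0.60, and the polymerase I subunit POLR1F 0.61, of which the last 3 lost their call without WT replicates 1 and 2. Most of these values lay near the 1.5-fold threshold, and in fits that left out 1 library the count called ran from 2 to 11.

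Calls of the remaining lists are given beside the shares of all genes, 10.2% higher and 3.15% lower. Higher and lower calls numbered 5 and 1 of 53 heat shock and chaperone genes, 4 and 2 of 51 ATF4 targets and tRNA synthetases, 1 and 0 of 45 proteasome subunits, and 1 and 0 of 39 circadian clock genes. They numbered 4 and 1 of 32 glucocorticoid response genes, 5 and 2 of 41 hypoxia response genes, 8 and 0 of 76 endothelial and podocyte genes, and 6 and 1 of 45 pigment cell genes. Without WT replicates 1 and 2, calls higher fell to 2 in the ATF4 list, 0 among proteasome subunits, 1 in the glucocorticoid list and 3 in the hypoxia list. Among these, the small heat shock protein HSPB7 of heart and muscle had 1.83, the cystathionine beta-synthase CBS 1.22, the secreted hormone STC2 3.22 and the hypoxia-inducible factor EPAS1 0.91. In the endothelial and podocyte list, the calls with the smallest p were the kidney tubule genes CDH17 (1.36), CUBN (1.34) and atp1a1a.4 (1.07, or 0.68 without WT replicates 1 and 2), which are not endothelial or podocyte genes, and the scavenging endothelium gene MRC1 (0.87). In the pigment list, pnp4b, a purine enzyme of iridophores, had 3.29 and XDH, of purine breakdown, 1.62, while the melanophore channel trpm1b had -0.84.

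In the gene order of the RefSeq table, 8 of 69 tested genes among the nearest 50 on each side of glo1 were called in the interaction (11.6%), as were 3 of 34 near akr1a1a (8.82%), beside 13.4% of all genes.

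**Figure D5:**
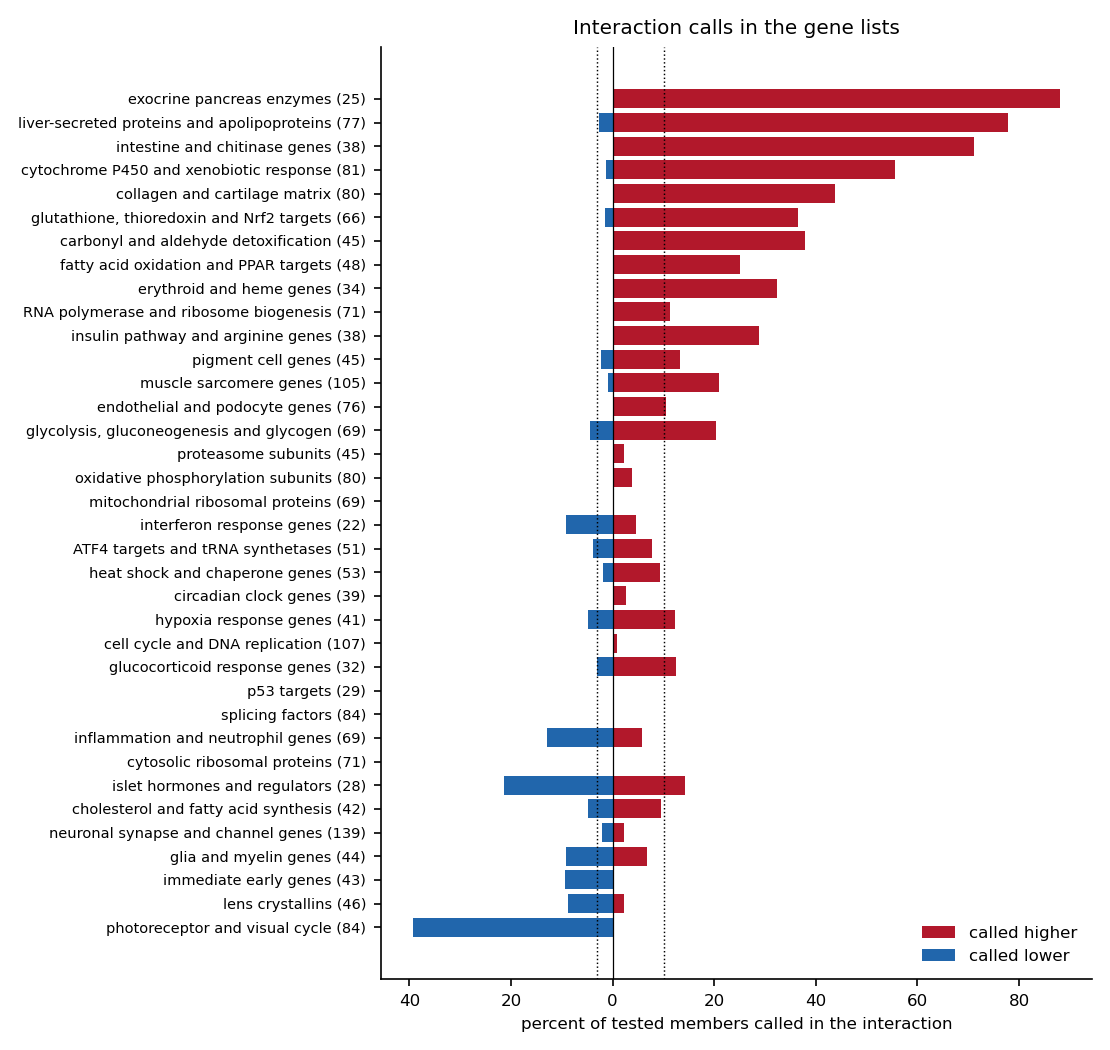
Bars give the percent of tested members of each list that were called higher (to the right) or lower (to the left) in the interaction, with the number tested in brackets, lists sorted by their median log2 interaction, and dotted lines at 10.2% and 3.15%, the shares of all genes. Pancreas, liver, intestine and cytochrome P450 lists stand at the top and the photoreceptor list at the bottom, with 33 of 84 called lower.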

How the data were processed

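RNA of 23 pooled clutches was sequenced on DNBSEQ as strand-specific mRNA libraries. The authors used SOAPnuke for cleaning, HISAT2 for alignment (GRCz11) and featureCounts 2.0.3 for gene-level counting, and the annotation, strand setting and treatment of multimapping reads are not given in the sources used here. The deposited table holds estimated counts for 22856 genes, of which 94 (0.411%) are not whole numbers, and these were rounded. Names came from a gene name table that matched 20170 IDs (88.2%), in which copies of a gene may share a capitalised name, so the ID is printed where copies were tested.

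Genes kept by filterByExpr (20136) were fitted with edgeR 4.0.16 (TMM scaling, quasi-likelihood test, 4 genotypes, no covariate) in R 4.3.3, in a script tested on simulated data. A call needed an adjusted p below 0.05 and a fold above 1.5. Standard errors are the log2 fold change divided by the square root of F, and CPM are TMM-scaled. Nothing in the labels says whether clutches of a genotype had different parents, so p-values measure the spread between these libraries. Depth was 34316527 to 36804437 counts, and no pair of libraries of a genotype agreed within counting noise. The named genes were the targeted genes, per class and sign the 3 called genes with the largest interaction above a mean log2 CPM of 1, per list up to 4 called members with the smallest p, the 3 largest of any name in each direction, and called genes that the study measured by RT-qPCR, with exceptions named in the text. Members, lists and tests were chosen with earlier results of these data known. Alternatives were DESeq2 1.42.0, limma-trend 3.58.1, other scalings, no filter on low counts, no fold threshold, the replicate number as a block and leaving out libraries. Protein and promoter sequences were not used here, and some named genes are not reported here.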

Additional observations from a re-analysis of the deposited data

Results flagged for a closer look

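The effect of akr1a1a loss differed between backgrounds by the test of the interaction itself for 2055 genes with a positive and 635 with a negative interaction, as described above.

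Of 308 groups of libraries examined for a lone extreme value in the genes and lists described, 17 held one (5.52%), where chance at 1 in 20 gives 15.4. Among CPM values, DKO replicate 5 stood at 6.81 in CEL (ENSDARG00000029822; the others 3.65 to 4.44) and at 64.9 in CAT (50.7 to 55.8), and DKO replicate 1 at 38.2 in AKR1B1 (33.0 to 34.4). AKR1A1AKO replicate 3 stood at 14.2 in SLC5A1 (6.84 to 8.48), and AKR1A1AKO replicate 5 at 0.465 in SMC1A (ENSDARG00000055754; 0 to 0.0271). WT replicate 1 stood at 130 in tfr1b (85.9 to 102) and at 57.7 in cox6b1 (42 to 47.7), WT replicate 2 at 5.88 in ddo (3.50 to 4.22), and GLO1KO replicate 2 at 5.45 in tmprss13a (2.47 to 3.53). In ENSDARG00000114941, WT replicate 6 stood at 9.77 (7.05 to 7.75), AKR1A1AKO replicate 4 at 18.5 (14.2 to 15.3) and DKO replicate 3 at 5.44 (1.40 to 2.63).

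Among list levels, given as mean centred log2 CPM, AKR1A1AKO replicate 5 stood at -0.17 in heat shock genes (-0.03 to 0.01), GLO1KO replicate 6 at -0.33 in erythroid genes (-0.20 to -0.14) and WT replicate 1 at -0.16 in glia genes (-0.01 to 0.07). DKO replicate 3 stood at -0.37 in circadian genes (0.16 to 0.32) and at -0.25 in hypoxia genes (-0.09 to -0.05).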

How the results depend on the processing

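The 2690 calls of the interaction became 2764 with DESeq2, 2684 with DESeq2 size factors, 2684 with scaling by library size, 2654 with limma-trend and 2731 without the filter on low counts. Library size scaling put the all-gene median of DKO against WT at -0.184 on the log2 scale, but that of the interaction at -0.002. Without the fold threshold, calls numbered 6410 for the interaction (3419 higher, 2991 lower), 8813 for AKR1A1AKO against WT, 2534 for DKO against GLO1KO, 12813 for GLO1KO against WT, 8201 for DKO against AKR1A1AKO and 12772 for DKO against WT, and classes held 3949 less than additive, 102 more than additive, 128 reversed and 330 DKO only genes, with 308 restored glo1, 535 restored akr1a1a and 209 restored both effects. Leaving out WT libraries was chosen after seeing the data. Without WT replicates 1 and 2, AKR1A1AKO against WT had 1373 calls, 600 genes were less than additive, 13 were reversed and 307 had the glo1 effect restored. Without WT replicates 1, 2 and 3, the interaction had 1624 calls (1221 higher, 403 lower), AKR1A1AKO against WT 1066, and classes held 439 less than additive, 3 more than additive and 9 reversed genes, with 314 restored glo1 and 39 restored both effects.

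Leaving out 1 library gave 2260 to 3063 calls of the interaction (1735 to 2271 higher, 525 to 792 lower), 1791 to 2806 for AKR1A1AKO against WT, 547 to 870 for DKO against GLO1KO, 4447 to 5275 for GLO1KO against WT, 2165 to 2555 for DKO against AKR1A1AKO and 4619 to 5401 for DKO against WT. Classes then held 882 to 1540 less than additive, 6 to 11 more than additive, 18 to 32 reversed, 51 to 62 DKO only and 806 to 1040 unresolved genes, with 118 to 254 restored glo1, 124 to 178 restored akr1a1a and 45 to 84 restored both effects. Same-numbered libraries of different genotypes had correlations of -0.127 to 0.21, with 6 of 33 pairs above 0.1, beside 22 of 165 pairs with other numbers. The labels do not say whether the numbers pair the samples, and low correlations cannot settle it. The replicate block gave 2861 calls (2173 higher, 688 lower). No count and no interaction of a named gene reversed under these settings, while list medians of single contrasts that lay near 0 changed sign with library size scaling, as given above for immediate early genes and lens crystallins. Among named genes, 5165 values kept and 147 lost their call. Of the list counts, 2071 stayed the same and 233 moved, and the cause of either was not tested.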
